A study of Mus musculus with 6 samples.

Results

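The Indian hedgehog and PTHrP axis was followed here through 9 genes, taken by name from the 17854 genes of the deposited table: the ligand *Ihh*, the receptor *Ptch1*, the signal transducer *Smo*, the transcription factors *Gli1*, *Gli2* and *Gli3*, the hedgehog-binding inhibitor *Hhip*, the ligand *Pthlh*, which encodes PTHrP, and its receptor *Pth1r*. All 9 were in the table and all 9 passed the expression filter that left 14289 genes for testing. The samples are bulk RNA-seq libraries of Tomato+ cells, 3 per group, from male mice of the C57BL/6 strain. MSC-derived cells were isolated from the repaired cartilage of unlabelled mice with surgically induced knee osteoarthritis (KOA), whose joints had been injected with *Prrx1*-lineage MSCs of inguinal white adipose tissue (iWAT). Endogenous cells were articular Tomato+ cells of age- and sex-matched *Prrx1-Cre; R26tdTomato* mice, and 3 mice were used for each group. The injected MSCs had been sorted as Tomato+ cells from mice of the same *Prrx1-Cre; R26tdTomato* genotype. In these mice Cre is driven by *Prrx1*, a gene of limb mesenchyme, and the Tomato label is kept by all descendants of a cell that once expressed it, so it marks a lineage and not a cell type. Surgery and injection were given to the mice of one group alone, so cell origin and joint injury cannot be told apart. Both groups were labelled as chondrocytes.

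*Ihh* is secreted by prehypertrophic chondrocytes. It binds *Ptch1*, which frees *Smo* to signal through the primary cilium to the Gli factors, and *Ptch1*, *Hhip* and *Gli1* are themselves induced by the pathway. In the growth plate *Ihh* maintains *Pthlh* expression, and PTHrP, acting on *Pth1r* of proliferating and prehypertrophic chondrocytes, delays hypertrophy and thereby limits the number of *Ihh*-producing cells. The loop is best known from the growth plate, and its genes are also active in articular cartilage and in bone, where osteoblasts carry *Pth1r*.

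The 6 libraries held between 22060628 and 24881796 counts, so that 3 counts, taken as the floor of detection, correspond to between 0.121 and 0.136 CPM (counts scaled by library size), a floor that covers counting error only. The biological coefficient of variation was 6.77% over the MSC-derived libraries and 35.3% over the endogenous ones. Endogenous replicate 1 stood apart: the chi-square statistic per gene was 56.6 and 53.4 between it and the other two endogenous libraries, against 5.30 between the latter, and it had 3449 genes at 0 where they had 1323 and 1375. The fit was therefore also run without it. The labelled cell type was checked against 11 chondrocyte marker genes, among them *Col2a1*, *Acan* and *Sox9*. Their summed TPM (a level scaled by transcript length and library size) was 27817 to 28104 in the endogenous libraries and 479 to 497 in the MSC-derived ones, and 11 of 11 were lower there.

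Promoter sequences are shown for 4 genes of the axis: the ligand *Ihh*, which showed the steepest fall of the 9, the target genes *Ptch1* and *Hhip*, and *Gli2*, the one whose window held the core of the GLI motif. Each is the 250 bases before the RefSeq start of the gene in GRCm38.p6, read 5′ to 3′ on the gene's own strand, which is the minus strand for all 4: *Ihh* at chr1:74951673-74951922, *Ptch1* at chr13:63565736-63565985, *Hhip* at chr8:80058009-80058258 and *Gli2* at chr1:119053620-119053869. Capitals mark motif matches, the GLI core in *Gli2* and the cAMP response element in *Hhip*.
Ihh: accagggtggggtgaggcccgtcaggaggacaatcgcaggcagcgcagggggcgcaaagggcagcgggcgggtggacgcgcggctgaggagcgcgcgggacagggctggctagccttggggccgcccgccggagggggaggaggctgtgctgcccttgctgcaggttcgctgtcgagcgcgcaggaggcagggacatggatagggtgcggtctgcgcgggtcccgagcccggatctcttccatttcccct
Ptch1: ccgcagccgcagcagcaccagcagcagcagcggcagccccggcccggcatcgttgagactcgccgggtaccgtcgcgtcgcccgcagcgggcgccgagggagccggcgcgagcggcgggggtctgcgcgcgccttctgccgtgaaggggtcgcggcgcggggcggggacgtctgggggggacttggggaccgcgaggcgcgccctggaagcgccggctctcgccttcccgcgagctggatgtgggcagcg
Hhip: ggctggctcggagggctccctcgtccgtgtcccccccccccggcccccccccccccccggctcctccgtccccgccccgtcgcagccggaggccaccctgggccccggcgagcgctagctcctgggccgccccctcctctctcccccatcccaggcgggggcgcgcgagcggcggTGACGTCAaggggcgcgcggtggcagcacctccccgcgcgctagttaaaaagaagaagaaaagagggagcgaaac
Gli2: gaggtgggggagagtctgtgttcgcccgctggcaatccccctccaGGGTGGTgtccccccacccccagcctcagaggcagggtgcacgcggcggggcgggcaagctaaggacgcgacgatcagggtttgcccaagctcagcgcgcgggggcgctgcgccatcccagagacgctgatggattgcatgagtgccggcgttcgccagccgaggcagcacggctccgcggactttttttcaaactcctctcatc

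RefSeq windows, which add the 50 bases after the start, were found for 8 of the 9 genes, *Pth1r* having 3 of them, and *Gli1* was without one. The GLI motif GACCACCCA (TGGGTGGTC on the other strand) was in 0 of the 10 windows and in 0.253% of all 32851 windows. Its core ACCACCC, or on the other strand GGGTGGT, which lies inside the full motif, was in 4.61% of all windows and, of the axis genes, in that of *Gli2* alone, starting 205 bases before the gene start. The cAMP response element TGACGTCA, which reads the same on both strands and is bound by CREB, a factor activated downstream of receptors such as *Pth1r*, was in 1.79% of all windows and in that of *Hhip*, 75 bases before the start. A RUNX motif, TGTGGT or on the other strand ACCACA, was in 16.8% of all windows and in that of *Gli3* alone among the axis genes, and a SOX motif, AACAAT or on the other strand ATTGTT, was in 10.7% of all windows and in 0 of the 10. Such matches describe letters in these windows and say nothing of binding.

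To ask whether the MSC-derived cells carried the same hedgehog and PTHrP signalling genes as the endogenous ones, counts were compared with edgeR's quasi-likelihood test with Benjamini-Hochberg adjustment over all genes tested, a gene being called at an adjusted p of up to 0.05. All 9 genes were lower in the MSC-derived cells and were called, from *Pthlh*, 3.90-fold lower, to *Hhip*, 96.6-fold lower, and *Ihh*, for which 4 counts remained in the 3 libraries together. In all 9 the highest MSC-derived library lay below the lowest endogenous library in CPM. Among all genes tested 30.3% were called lower and 31.3% higher, and 34.1% had groups that did not overlap with the MSC-derived cells below. The median log2 fold change of the 9 was -3.96, against 0.05 for all genes tested. In bulk samples, fewer cells of a type and less RNA per cell cannot be told apart. By limma on log2(TPM + 1) the split over all genes was 2986 higher and 5636 lower, and all 9 were called lower there too.

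**Figure D1:**
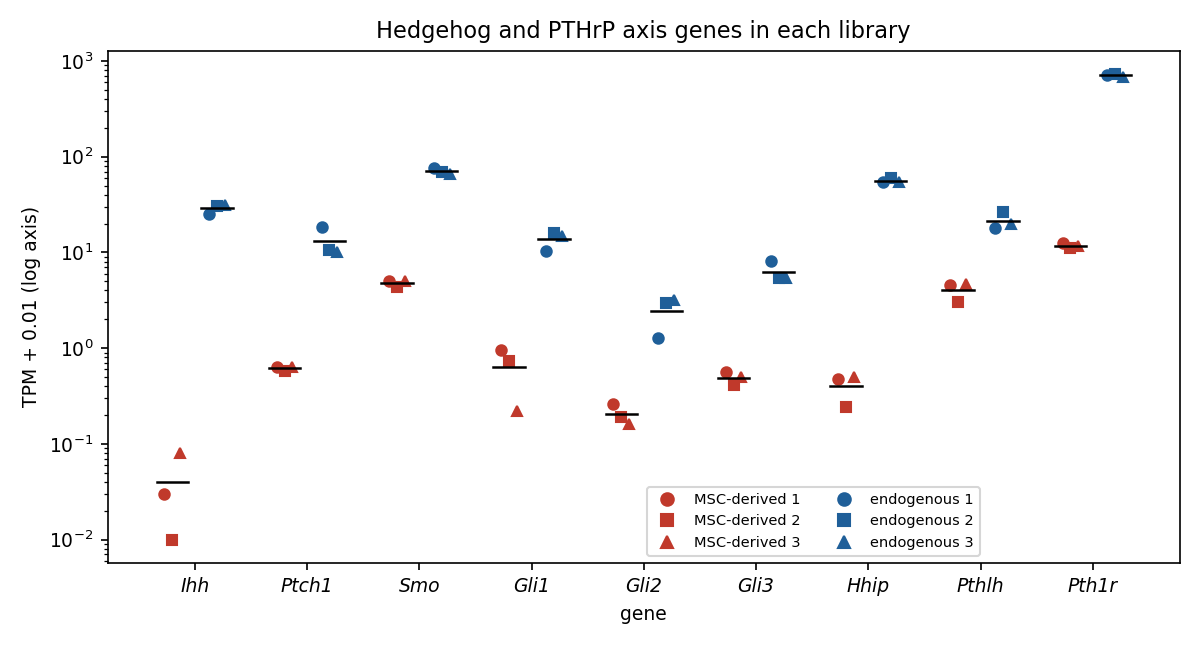
TPM (plus 0.01, log axis) of the 9 axis genes in each of the 6 libraries, with red symbols for MSC-derived and blue for endogenous libraries, symbol shapes for replicates and black bars for group means. In each gene the 3 blue points lie above the 3 red ones; *Pth1r* is the highest gene in both groups, and *Ihh* falls from between 25.3 and 31.4 TPM to at most 0.07.

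*Ihh*, the ligand that starts the loop, was close to absent from the MSC-derived libraries. It had 1, 0 and 3 counts in MSC-derived replicates 1, 2 and 3, and 583, 775 and 860 in endogenous replicates 1, 2 and 3. These are 0.02, 0 and 0.07 TPM against 25.3, 30.5 and 31.4 TPM. The MSC-derived values are at or below the floor of 3 counts in every library, while the endogenous ones lie well above it. The ratio of the summed counts per TMM-scaled library total, 4 against 2218 counts, was 583.5-fold lower (exact 95% interval 227.6 to 2143, counting error only). The fitted log2 fold change was -9.05 (SE 0.46, adjusted p = 2.29e-06 by edgeR), a value that depends on the prior count at this depth, and only 0.0770% of the genes tested fell further. It was -10.30 without MSC-derived replicate 3, which held 3 of the 4 counts.

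The receptor *Ptch1*, both the brake on *Smo* and a target of the pathway, had 0.63, 0.57 and 0.62 TPM in the MSC-derived libraries and 18.6, 10.5 and 10.2 TPM in the endogenous ones. The 3 MSC-derived libraries were nearly level, and endogenous replicate 1 was the highest of its group. The gene was 15.6-fold lower in MSC-derived cells (log2 fold change -3.96, SE 0.23, adjusted p = 4.10e-06 by edgeR). *Smo*, the transducer that *Ptch1* holds back, had 5.07, 4.39 and 4.98 TPM in the MSC-derived libraries against 75.4, 68.9 and 66.7 TPM. It varied little within either group and was 10.7-fold lower (log2 fold change -3.42, SE 0.10, adjusted p = 1.64e-07 by edgeR).

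*Hhip*, a membrane protein that sequesters hedgehog ligand and is induced by it, showed the steepest fall of the 9 after *Ihh*. It had 56, 39 and 31 counts in the MSC-derived libraries and 3552, 3936 and 4076 in the endogenous ones. The log2 fold change was -6.59 (SE 0.17, adjusted p = 1.27e-07 by edgeR), and 0.644% of the genes tested fell further. In TPM it stood at 0.47, 0.23 and 0.49 against 54.0, 59.7 and 55.0. The order of the MSC-derived libraries is not the same in TPM as in counts, because the effective transcript length differed between them. As implied by the deposited count, FPKM and library total, it was 6.00, 8.79 and 3.51 kb in those libraries. In the endogenous ones it was 4.84 to 5.55 kb. For *Ptch1*, *Smo*, *Gli1*, *Pthlh* and *Pth1r* the implied length varied far less.

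The 3 Gli factors carry the signal to the nucleus: *Gli1* is an activator and a target, *Gli2* the main activator and *Gli3* largely a repressor when the ligand is absent. *Gli1* had 65, 48 and 13 counts in the MSC-derived libraries and 429, 753 and 739 in the endogenous ones, which is 0.94, 0.73 and 0.21 TPM against 10.4, 15.9 and 14.9 TPM. MSC-derived replicate 3 was well below the other two, and endogenous replicate 1 was the lowest of its group. The log2 fold change was -4.02 (SE 0.49, adjusted p = 0.000274 by edgeR). Exons of *Gli1* overlap those of *Arhgap9* on the opposite strand in the GENCODE annotation, and no source used here states that reads were counted by strand, so reads of this pair may not be told apart. *Arhgap9* had 2252, 2191 and 2106 counts in the MSC-derived libraries and 66, 88 and 96 in the endogenous ones, the opposite direction from *Gli1*. Exons of *Pth1r* likewise overlap *Myl3*, a muscle gene with 0, 3 and 3 counts in the MSC-derived libraries and 47, 8 and 12 in the endogenous ones, and those of *Gli3* and *Hhip* overlap non-coding transcripts on the opposite strand.

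*Gli2* had 32, 22 and 18 counts in the MSC-derived libraries and 104, 266 and 308 in the endogenous ones. Endogenous replicate 1 was again the lowest of its group but stayed above all MSC-derived libraries. *Gli2* was 9.87-fold lower (log2 fold change -3.30, SE 0.47, adjusted p = 0.000612 by edgeR). *Gli3* had 90, 62 and 70 counts in the MSC-derived libraries and 677, 599 and 637 in the endogenous ones, and was 9.08-fold lower (log2 fold change -3.18, SE 0.18, adjusted p = 3.79e-06 by edgeR). Within the summed TPM of the 3 factors, *Gli1* made up 54.0%, 55.7% and 24.7% in the MSC-derived libraries and 52.7%, 65.8% and 63.4% in the endogenous ones. The *Gli1* shares overlapped between the groups. *Gli2* made up 14.4%, 13.7% and 17.6% in the MSC-derived libraries and 6.39%, 12.2% and 13.5% in the endogenous ones. The shares of MSC-derived replicate 2 and endogenous replicate 3 were too close to separate, the former resting on 22 counts and 0.18 TPM of *Gli2*.

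*Pthlh* had the smallest fall of the 9 genes. It had 113, 72 and 105 counts in the MSC-derived libraries and 268, 456 and 351 in the endogenous ones, or 4.54, 3.03 and 4.65 TPM against 17.9, 26.7 and 19.6 TPM. The groups stayed apart, although each of them varied more than for *Smo* or *Pth1r*. The log2 fold change was -1.96 (SE 0.28, adjusted p = 0.000654 by edgeR), and 14.1% of the genes tested fell further.

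*Pth1r*, the receptor of PTHrP and parathyroid hormone, had the highest level of the 9 genes in both groups. It had 12.56, 11.02 and 11.65 TPM in the MSC-derived libraries and 714.0, 730.4 and 685.2 TPM in the endogenous ones. Both groups were tight, at 11.7 ± 0.774 and 709.9 ± 22.9 TPM (SD, n = 3). The gene was 44.8-fold lower (log2 fold change -5.49, SE 0.10, adjusted p = 4.92e-08 by edgeR), and 1.45% of the genes tested fell further. The ligand thus kept 19.1% of its mean endogenous TPM and the receptor 1.65%. Both falls were larger in TPM than in the edgeR fit, where the ratios to the endogenous level were 0.257 for *Pthlh* and 0.0223 for *Pth1r*.

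**Figure D2:**
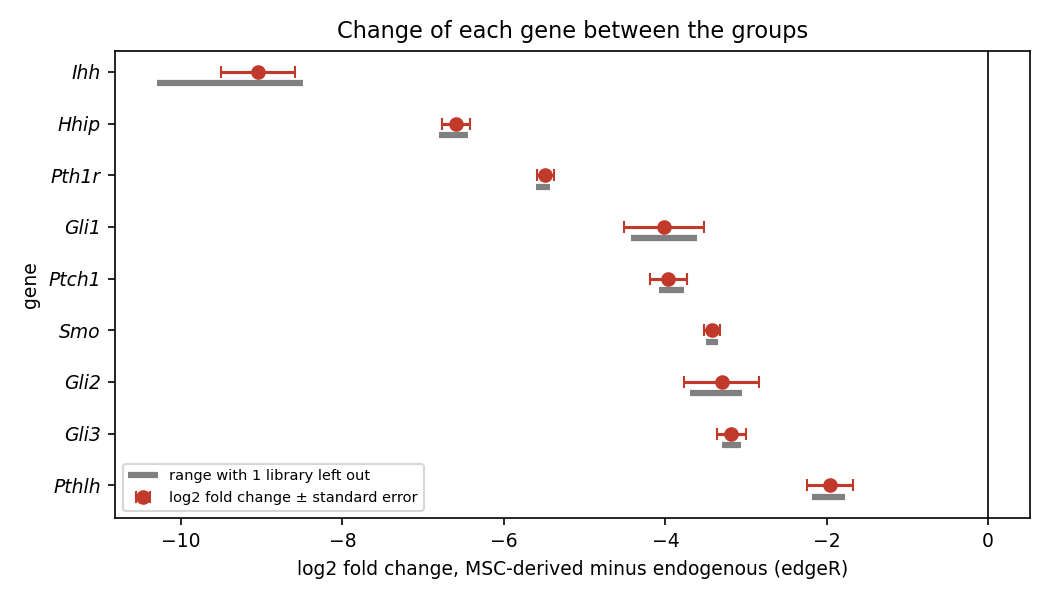
Log2 fold change of each axis gene (MSC-derived minus endogenous, edgeR), points with bars of 1 standard error, and grey bars for the range when 1 of the 6 libraries is left out. All values lie below 0, from -1.96 for *Pthlh* to -9.05 for *Ihh*, whose grey bar is the widest.

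In the endogenous cells the order of mean TPM was *Pth1r* (709.9), *Smo* (70.3 ± 4.53), *Hhip* (56.2 ± 3.03), *Ihh* (29.0 ± 3.31), *Pthlh* (21.4 ± 4.67), *Gli1* (13.7 ± 2.93), *Ptch1* (13.1 ± 4.76), *Gli3* (6.28 ± 1.55) and *Gli2* (2.45 ± 1.04; SD, n = 3). The ranges of *Ihh* and *Pthlh* overlapped, as did those of *Gli1* and *Ptch1*, so these neighbours were not separated. In the MSC-derived cells the order was *Pth1r* (11.7), *Smo* (4.81 ± 0.369), *Pthlh* (4.07 ± 0.905), *Gli1* (0.627 ± 0.376), *Ptch1* (0.607 ± 0.0321), *Gli3* (0.480 ± 0.0755), *Hhip* (0.397 ± 0.145), *Gli2* (0.193 ± 0.0513) and *Ihh* (0.030 ± 0.0361; SD, n = 3). There the pairs *Smo* and *Pthlh*, *Gli1* and *Ptch1*, *Gli3* and *Hhip*, and *Hhip* and *Gli2* overlapped. *Ihh* and *Hhip* thus stood lower in the order of the MSC-derived cells, and the genes below them in the endogenous cells moved up.

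Shares of the summed TPM of the 9 genes were compared as well. *Pth1r* made up 49.98% to 53.6% of the sum in MSC-derived libraries and 76.8% to 77.2% in endogenous ones. *Pthlh* made up 14.7% to 19.9% against 1.93% to 2.80%, and *Smo* 20.3% to 21.4% against 7.25% to 8.15%. The ranges of each of these 3 genes did not overlap between the groups. The same held for every other gene of the 9 except *Gli1*, at 0.90% to 3.76% against 1.12% to 1.67%. *Pth1r* was the largest part of the sum in every library. A share rises by arithmetic for any gene that fell less than that sum. Genes outside the 9 were not compared by share. In CPM, 34.1% of all genes tested had no overlap with MSC-derived cells below, and 38.2% with them above.

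Differences between genes of the axis were also taken within each library, as log2(TPM + 0.1), for 6 pairs with an exact two-sided permutation test, which cannot give a p below 0.1 with 3 against 3 libraries. The receptor exceeded its ligand less in the MSC-derived cells: *Pth1r* lay above *Pthlh* by 1.53 ± 0.27 there and by 5.07 ± 0.28 in the endogenous cells (SD, n = 3; exact permutation p = 0.1, adjusted 0.2). *Hhip* was below *Ptch1* in the MSC-derived cells, at -0.56 ± 0.41, and above it in the endogenous cells, at 2.15 ± 0.53 (SD, n = 3; exact permutation p = 0.1, adjusted 0.2). In both pairs the libraries of the groups did not overlap. Pairs of other genes were not compared. Of single genes tested, 34.1% had no overlap in CPM with MSC-derived cells below, and 38.2% with them above. *Gli1* minus *Ptch1* differed by -0.23 between the groups (exact permutation p = 0.5, adjusted 0.6), *Gli1* minus *Gli3* by -0.96 (p = 0.3, adjusted 0.45) and *Gli2* minus *Gli3* by 0.41 (p = 0.9, adjusted 0.9). In these 3 pairs the libraries of the groups overlapped. *Ptch1* minus *Smo* differed by -0.32 (exact permutation p = 0.1, adjusted 0.2), a difference that turned to 0.53 with a pseudocount of 1. For this pair the groups did not overlap either, but came close, at -2.74 in MSC-derived replicate 2 and -2.70 in endogenous replicate 3.

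Other genes of the pathway were taken from lists by role, and most of those measured on the side of ligand and reception were lower in MSC-derived cells. The counts of each list stand against 30.3% of all genes tested called lower and 31.3% called higher. Of the 7 listed genes for hedgehog ligands and their release, 6 were tested, of which 0 were called higher and 5 lower, with a median log2 fold change of -3.30. *Scube2* and *Scube1*, secreted proteins of the family that helps release hedgehog from the cell surface, fell by 5.44 (SE 0.78) and fell by 4.35 (SE 0.29) on the log2 scale, with adjusted p of 0.000646 and 1.00e-05 by edgeR. *Hhat*, which palmitoylates the ligand, fell by 2.31 (adjusted p = 3.44e-05) and *Disp1*, which exports it, by 1.29 (adjusted p = 0.00967). *Scube3* was not called, with 8, 11 and 14 counts against 0, 79 and 99 (adjusted p = 0.140 by edgeR), and was called lower once endogenous replicate 1, the library at 0, was left out (adjusted p = 6.15e-07).

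The other hedgehog ligands were scarce. *Dhh*, best known from Sertoli and Schwann cells, had 3, 6 and 6 counts in the MSC-derived libraries and 206, 24 and 26 in the endogenous ones. Endogenous replicate 1 was far above the other libraries, and the log2 fold change was -4.14 (SE 1.06, adjusted p = 0.0109 by edgeR, and 0.0509 without MSC-derived replicate 1). *Shh* had 0 counts in each MSC-derived library and 0, 4 and 4 in the endogenous ones, and was not tested.

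Of 6 listed genes for reception, 5 were tested, of which 0 were called higher and 4 lower, with a median log2 fold change of -2.57. The co-receptors *Boc*, *Gas1* and *Cdon*, which help *Ptch1* bind the ligand, fell by 3.37 (SE 0.14), fell by 2.60 (SE 0.06) and fell by 1.99 (SE 0.09) on the log2 scale, with adjusted p of 7.72e-07, 1.06e-07 and 1.66e-06 by edgeR. *Gas1* kept the most reads of the 3, with 2520, 2425 and 2138 counts in the MSC-derived libraries against 13476, 13180 and 13998. *Gpc3*, a glypican that competes for hedgehog, fell by 2.57 (SE 0.69, adjusted p = 0.0134 by edgeR), but was not called without MSC-derived replicate 2 or 3 or endogenous replicate 2 (adjusted p = 0.0522, 0.0617 and 0.0505). *Lrp2*, with 3 counts in all, was not tested.

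Further down the pathway the picture was mixed. Of 12 transduction genes tested, 2 were called higher, 6 lower and 4 not called, with a median of -0.80. Over all genes tested 61.6% were called in either direction, so being called says little about this list. The kinesin *Kif7* and the ciliary protein *Evc2*, both needed for *Smo* to reach the Gli factors, fell by 3.45 (SE 0.29) and 2.47 (SE 0.27), with adjusted p of 3.00e-05 and 0.000135 by edgeR. The genes that rose were *Arrb2*, with a log2 fold change of 4.14 (SE 0.13, adjusted p = 2.13e-07), and *Grk2*, with 2.46 (SE 0.26, adjusted p = 0.000109). These encode a beta-arrestin and a receptor kinase that act on *Smo* and on many other receptors, chemokine receptors of leukocytes among them. The summed TPM of 5 leukocyte genes rose beside them, from between 152.3 and 180.4 to between 2606 and 2638, and its part in these calls was not tested.

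Of 13 genes of the primary cilium, the organelle in which *Smo* acts, 2 were called higher, 8 lower and 3 not called, with a median of -1.18. *Tulp3*, which carries receptors into the cilium, fell by 3.48 (SE 0.15, adjusted p = 9.88e-07 by edgeR) and the retrograde motor *Dync2h1* by 2.27 (SE 0.29, adjusted p = 0.000326). The retrograde transport gene *Ift140* rose, with a log2 fold change of 1.06 (SE 0.13, adjusted p = 0.000294), as did the kinesin subunit *Kif3a*, with 0.48 (SE 0.13, adjusted p = 0.0133, and 0.0550 without MSC-derived replicate 3).

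Of 9 genes listed as hedgehog targets in mesenchyme or cartilage, 8 were tested, of which 0 were called higher, 7 lower and 1 not called, with a median of -2.23. *Foxf2* and *Foxc2*, forkhead factors of mesenchyme, fell by 4.37 (SE 0.61) and 3.97 (SE 0.32), with adjusted p of 0.000532 and 2.81e-05 by edgeR. *Foxf2* had 4, 9 and 2 counts in the MSC-derived libraries against 70, 115 and 116, and *Foxc2* had 56, 38 and 19 against 548, 551 and 568. In both genes the groups lay far apart.

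Of 16 genes listed for the PTH receptor pathway, mostly signalling genes downstream of *Pth1r* besides other ligands and the receptor *Pth2r*, 14 were in the table and 13 were tested, of which 1 was called higher, 11 lower and 1 not called. Their median log2 fold change was -0.51, far less than that of the receptor. *Zfp521*, a nuclear effector of PTHrP in chondrocytes, and *Mef2c*, a driver of hypertrophy that is held in check by class IIa histone deacetylases, fell by 2.38 (SE 0.18) and 2.19 (SE 0.09), with adjusted p of 1.80e-05 and 8.50e-07 by edgeR. *Sik2*, a kinase inhibited by PTHrP signalling, had a log2 fold change of 0.40 (SE 0.15, adjusted p = 0.0452), a call that was lost without any one MSC-derived library or endogenous replicate 3 (adjusted p between 0.0593 and 0.163). The genes of hypertrophy, the step that PTHrP delays, were called lower in MSC-derived cells in 12 of 12 cases, with a median of -3.45. Over all genes tested 30.3% were called lower. *Panx3*, a channel of prehypertrophic chondrocytes and osteoblasts, had 3, 2 and 0 counts against 5166, 3924 and 4803, and *Alpl*, the phosphatase of mineralizing cells, fell by 6.06 (SE 0.09, adjusted p = 2.61e-08 by edgeR). Of these 12 genes *Ibsp* and *Sp7* are also in the osteoblast marker list. That list fell too, and the part of osteoblasts in the fall of these 12 genes was not tested.

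**Figure D3:**
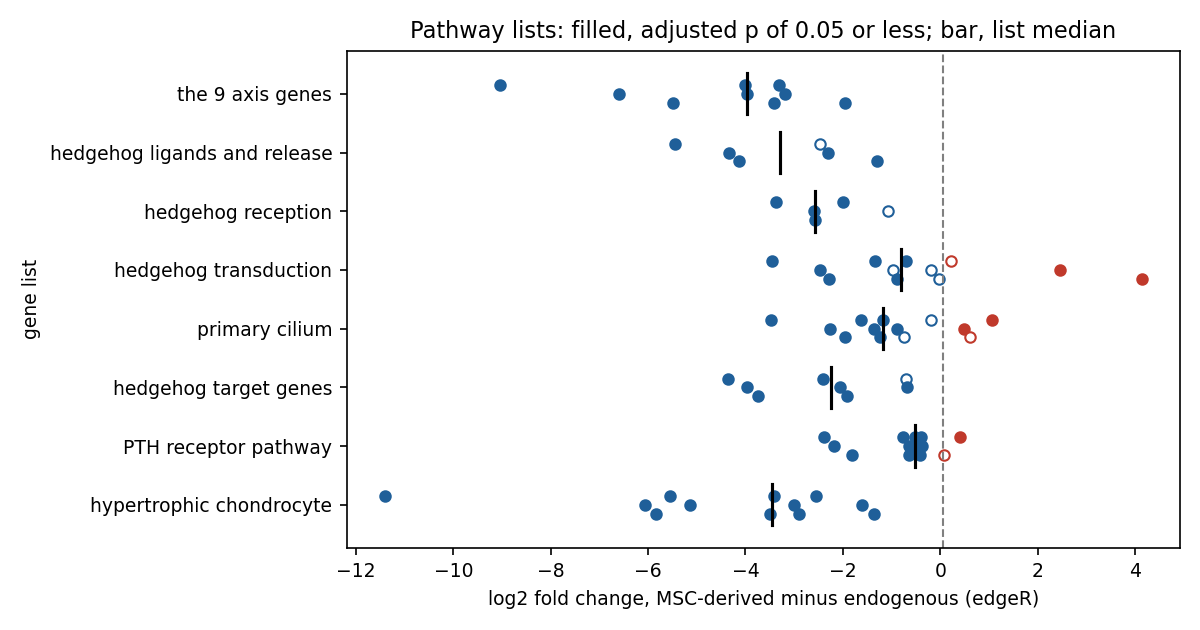
Log2 fold change (MSC-derived minus endogenous, edgeR) of each tested gene of the axis and of 7 pathway lists, with filled points for genes called, open points for genes not called, a black bar for the median of each list and a dashed line for the median of all genes tested (0.05). The medians lie at -3.96 for the 9 axis genes, -0.80 for transduction, -0.51 for the PTH receptor pathway and -3.45 for hypertrophy.

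Markers of some other cell types fell with the axis, and those of others rose. The summed TPM of 6 osteoblast genes, markers of a cell type that also carries *Pth1r*, was 52277 to 67831 in endogenous libraries and 554 to 576 in MSC-derived ones, and 6 of 6 were called lower. All 5 stromal fibroblast genes were called lower as well, at a summed 15929 to 20163 against 1501 to 1527 TPM. The markers of blood cells went the other way: 5 of 5 leukocyte, 6 of 6 macrophage, 5 of 5 neutrophil and 5 of 5 erythroid genes were called higher in MSC-derived cells. The counts of these marker lists stand against 31.3% of all genes tested called higher and 30.3% called lower. Macrophage genes summed to 33.4 to 40.6 TPM in endogenous and 5501 to 5622 in MSC-derived libraries, and neutrophil genes to between 6828 and 10070 and between 137651 and 146629. Erythroid genes summed to between 9397 and 12206 TPM and between 38960 and 40516. Of 5 endothelial genes 4 were called higher, at 7.35 to 14.6 against 26.5 to 30.2 TPM, and 0 of 3 tested skeletal muscle genes were called. Of the adipocyte genes 2 of 2 tested were called lower, at a summed 256.7 to 279.5 against 0.67 to 1.64 TPM. That sum was almost all *Adipoq*, at 255.0 to 278.0 TPM in the endogenous libraries, so it is the level of 1 gene. The part of these cell types in the fall of the axis genes was not tested.

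**Figure D4:**
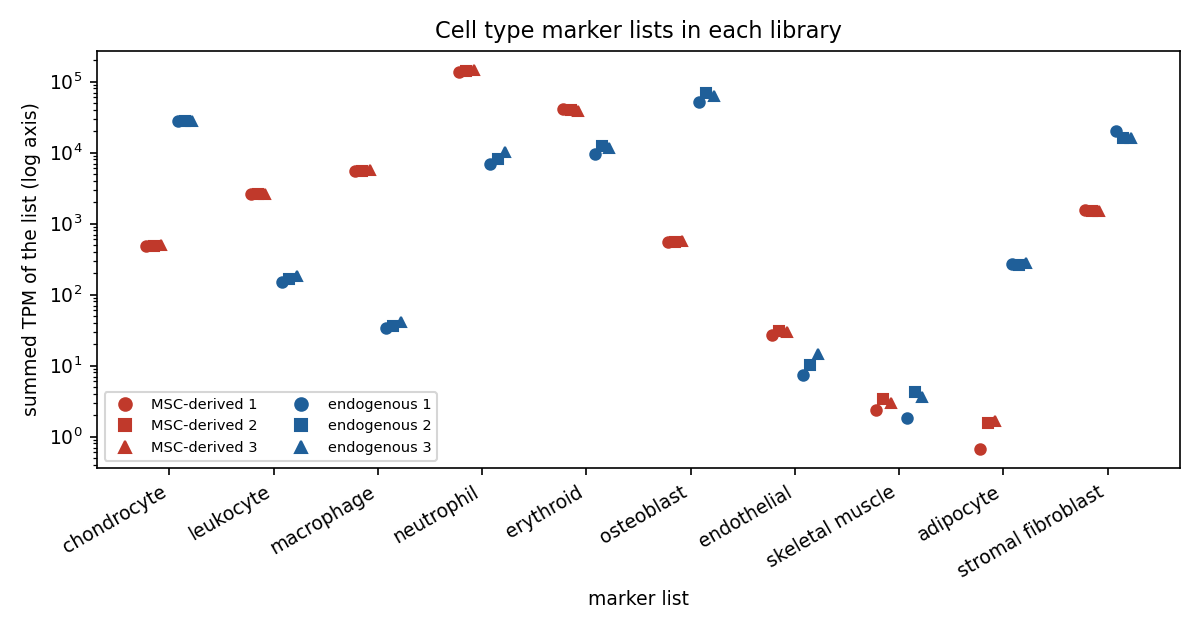
Summed TPM (log axis) of 10 cell type marker lists in each library, with red symbols for MSC-derived and blue for endogenous libraries and symbol shapes for replicates. Chondrocyte, osteoblast, stromal fibroblast and adipocyte lists are lower in the MSC-derived libraries, and leukocyte, macrophage, neutrophil, erythroid and endothelial lists are higher.

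Since the chondrocyte genes fell too, 57.3-fold in summed TPM, a log2 difference of -5.84, each axis gene except *Ihh*, which was at 0 in 1 library, was set against that sum within its own library, on the log2 scale. Relative to the chondrocyte genes *Pth1r* stood at -5.27, -5.44 and -5.41 in the MSC-derived libraries and at -5.30, -5.25 and -5.34 in the endogenous ones. The groups overlapped, and the difference was -0.08 (exact two-sided permutation p = 0.3, adjusted 0.3 over 8 genes), between -0.13 and -0.04 with 1 library left out. This value rests on 1 gene of the sum. *Comp*, a cartilage matrix protein and the chondrocyte gene that fell least (log2 fold change -3.93, against a median of -6.30 for the 11), made up 58.4% to 60.0% of the sum in the MSC-derived libraries and 20.1% to 21.98% in the endogenous ones. Without it the sum of the other 10 had a log2 difference of -6.79, and *Pth1r* stood 0.87 higher relative to it in MSC-derived cells, without overlap (exact permutation p = 0.1, adjusted 0.1). In fitted log2 fold change, 9 of the 11 chondrocyte genes fell further than *Pth1r*.

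*Hhip* stood lower relative to the sum in MSC-derived cells, at -10.01, -11.03 and -9.99 against -9.02, -8.87 and -8.98, a difference of -1.38 that shrank to -0.44 without *Comp*. With *Comp* in the sum the groups did not overlap. Without it they all but met, at -8.704 in MSC-derived replicate 3 and -8.699 in endogenous replicate 1. That gap is within the rounding of the deposited TPM, so the groups were not separated there. The implied length for *Hhip* behind these TPM values was also uneven, and 4 of the 11 chondrocyte genes had a lower fitted log2 fold change than *Hhip*. *Pthlh* fell least, and stood 3.44 higher relative to the sum in MSC-derived cells (4.39 without *Comp*), followed by *Gli2* (2.25), *Gli3* (2.15), *Smo* (1.97) and *Ptch1* (1.47), all 5 without overlap between the groups. For these 6 genes, *Hhip* included, the exact permutation p was 0.1, the smallest possible, and 0.133 after adjustment. *Gli1* differed by 1.15 and overlapped (exact permutation p = 0.3, adjusted 0.3), and differed by 2.10 without overlap when *Comp* was left out of the sum (exact permutation p = 0.1, adjusted 0.1).

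A rise relative to the chondrocyte sum was the rule: of 13256 tested genes above 0 in all libraries, 97.7% stood higher in MSC-derived cells without overlap and 0.453% lower, and the median difference was 5.45. Without *Comp* in the sum these shares were 98.9% and 0.174%. *Pthlh* therefore stayed below the median gene by this measure.

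**Figure D5:**
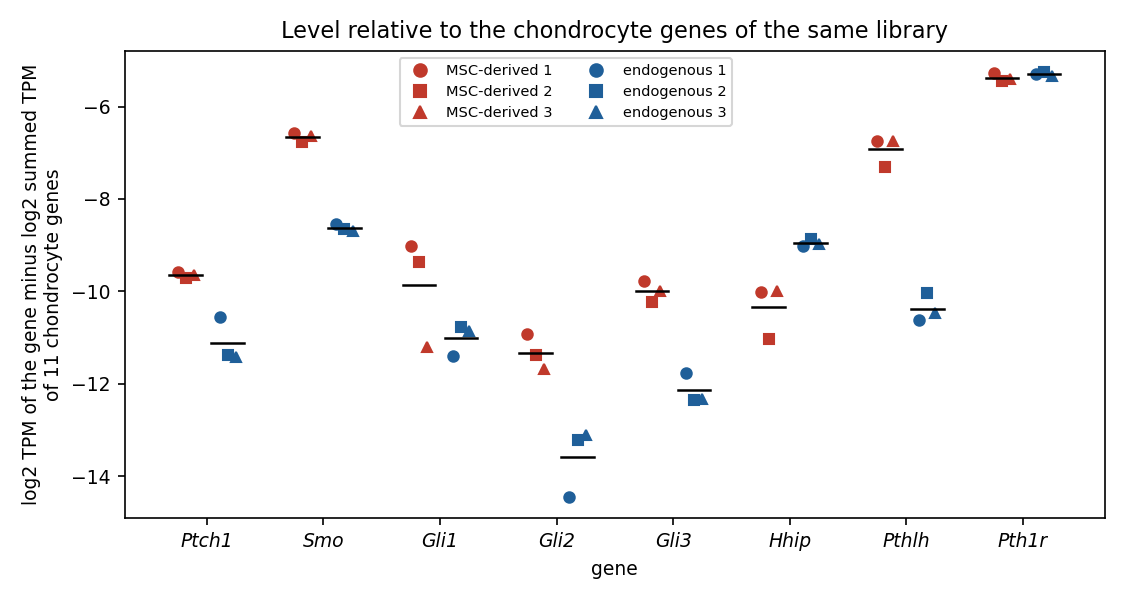
Log2 TPM of 8 axis genes minus the log2 summed TPM of 11 chondrocyte genes of the same library, with red symbols for MSC-derived and blue for endogenous libraries, symbol shapes for replicates and black bars for group means. The *Pth1r* points of the groups overlap, which they did not when *Comp* was left out of the sum, *Hhip* is lower in the MSC-derived libraries, and *Pthlh* is the gene that stands highest above its endogenous level, by 3.44.

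The genes whose pattern over the 6 libraries was most like that of an axis gene were found by the Euclidean distance of log2 CPM, each gene centred on its own mean. With 2 groups this distance rests largely on the difference between them, so genes of like fold change come out near. For *Pth1r* the nearest were *Fgfr3*, at a distance of 0.190, *Acan* (0.233) and *Ahsg* (0.273), and for *Ihh* they were *Col9a2* (0.854), *Bglap* (0.938) and *Col9a3* (1.14). Fitted log2 fold changes were -5.49 for *Pth1r*, -5.57 for *Fgfr3*, -5.55 for *Acan* and -6.89 for *Ahsg*. Shared regulation of these genes was not tested. *Fgfr3* encodes a growth factor receptor of chondrocytes, *Acan* the cartilage proteoglycan aggrecan, *Col9a2* and *Col9a3* chains of type IX collagen, and *Bglap* osteocalcin of osteoblasts. *Ahsg* had 1 count in each MSC-derived library and *Ihh* itself 0 to 3, so that the prior count sets much of their log2 CPM there, and the genes listed for *Ihh* are a weak match (fitted log2 fold changes of -7.81, -7.73 and -7.68 against -9.05). For *Ptch1* the nearest included *Spats2l* (0.141) and *Il1r1* (0.201), for *Gli1* *Aldh3a1* (0.486), *Slc2a13* (0.517) and *Kank4* (0.654, with 0 to 5 counts in MSC-derived libraries), and for *Pthlh* *Tlcd4* (0.337), *Micall1* (0.370) and *Mrc2* (0.391). None of these genes is one of the 9.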

How the data were processed

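Bulk RNA-seq of 3 MSC-derived and 3 endogenous Tomato+ samples was analysed. Per the study's methods, the authors used SOAPnuke for read filtering, HISAT2 and Bowtie2 for alignment and RSEM for quantification. The submitters' processing notes name Bowtie2 2.2.5, RSEM 1.2.12 and mm9, and since the study's methods give other versions and no build, no coordinates are given for expression values. The deposited expected counts (not normalized), TPM (summing to one scale in every library) and FPKM (per length and library size) were used through 18 columns matched to samples by name. A further deposited signal, a normalized read count, was not used. The authors' group averages (8 columns) were set aside, and every column of a single sample was mapped.

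Expected counts were rounded, which changed 20.6% of values, and tested in edgeR 4.0.16 (R 4.3.3) with TMM normalization, filterByExpr, glmQLFit and glmQLFTest, group alone as term, Benjamini-Hochberg adjustment and a threshold of 0.05, after the script had been tested on simulated data. Standard errors (SE) were obtained from each log2 fold change and the F statistic of its test. Log2 CPM for the likeness of patterns used a prior count of 2. 

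The 9 genes and the gene lists were chosen with earlier results of these data known. Named besides the 9 were every gene of a list of 7 or fewer, and of each longer pathway list the called genes with the largest 2 rises and 2 falls with average log2 CPM not below 0, and for 5 axis genes the 3 nearest genes by pattern, except for some that are not reported here. *Arhgap9*, *Myl3*, *Comp*, *Ibsp*, *Sp7* and *Adipoq*, the levels relative to the chondrocyte genes and 4 of the 5 motifs were added after the data were seen. The alternatives were DESeq2 1.42.0, other normalizations and filters, a robust fit, a replicate block, leaving out each library, limma 3.58.1 on log2 TPM, FPKM in place of TPM, another pseudocount and a threshold of 0.001. Promoter windows are RefSeq's for GRCm38.p6, and exon overlaps were read from GENCODE. Figures were drawn with matplotlib 3.10.9. The sources give 3 mice a group without saying that each library came from its own mouse, so p-values measure the spread between these libraries, which may be technical.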

Additional observations from a re-analysis of the deposited data

How the results depend on the processing

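All 9 axis genes stayed lower and called under every alternative run, with 9 called without endogenous replicate 1 too; the log2 fold change ranged from -10.30 to -4.86 for *Ihh*, -3.69 to -1.48 for *Gli2* and -2.37 to -1.77 for *Pthlh*. The values nearest 0 for *Ihh* and *Gli2* came on log2(TPM + 1), a scale that shrinks low genes by construction. With 1 library left out, the genes called over the whole table numbered 3672 to 5563 higher and 3761 to 5686 lower. The 1 gene of the PTH receptor pathway called higher fell to 0 with DESeq2, RLE size factors, upper quartile scaling, all 3 limma fits, the threshold of 0.001 and the replicate block, and ranged from 0 to 2 with 1 library left out (2 without endogenous replicate 1). Cilium genes called higher numbered 1 in the 3 limma fits and at 0.001, and 1 to 2 with 1 library left out (1 without MSC-derived replicate 3). Genes called lower numbered 4 to 6 for ligands, 3 to 4 for reception, 5 to 8 for transduction, 7 to 9 for the cilium, 10 to 11 for the PTH receptor pathway and 7 for targets with 1 library left out. By limma on log2(TPM + 0.1), 2908 genes were higher. At 0.001, 2134 genes were higher and 2380 lower, with 3 ligand, 3 cilium and 4 PTH receptor pathway genes lower. *Ptch1* minus *Smo* reversed to 0.53 with a pseudocount of 1. *Gli1* minus *Ptch1* ranged from -0.70 to 0.31 with 1 library left out, reversing to 0.31 without MSC-derived replicate 3 and to 0.01 without endogenous replicate 2, and *Gli2* minus *Gli3* from -0.19, without endogenous replicate 1, to 0.72. The cause of these changes was not tested. Scaling by library totals alone moved the median of all genes by 0.12 on the log2 scale, and all 9 genes were lower under each scaling. Replicate numbers did not pair the samples (correlation of same-numbered deviations 0.0129, 0.0022 and 0.0178, with endogenous replicate 2 correlating best with MSC-derived replicate 3). With the replicate block 4103 genes were higher and 3920 lower, and the 9 remained called with a largest adjusted p of 0.00487, for *Pthlh*. Leaving *Comp* out of the chondrocyte sum, a choice made after the data were seen, reversed the relative level of *Pth1r* from -0.08 to 0.87 and that of no other gene. Depth limits *Ihh*, *Gli1*, *Gli2* and *Hhip* most, whose MSC-derived counts were between 0 and 65 per library.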
